A study of Mus musculus with 18 samples.

Results

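KDM2A sites seen only in KO were stretches of the genome at which the deposited KDM2A peak lists of Mir155-deficient B cells held a peak and those of miR-155-sufficient B cells held none. Overlapping peaks of the 6 KDM2A lists were joined into 67881 intervals, and an interval was kept when at least 2 of the 3 KO lists and 0 of the 3 WT lists had a peak in it. The rule found 539 KO-only intervals. They are set below against the 16511 bound intervals, those with a peak in at least 2 lists of either genotype. They made up 5.08% of the 10608 intervals that had a peak in at least 2 KO lists, so most sites bound in KO B cells were also called in at least 1 WT list. Because the members were chosen by the KDM2A calls themselves, their presence in KO and absence in WT, their fold and the genes near them are descriptions and carry no test.

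The libraries came from splenic B cells of miR-155-sufficient mice (WT) or of mice with a germline deficiency of Mir155 (KO), both on a C57BL/6 background. Cells of both genotypes had been activated for 2 days at 1% O2 and 5% CO2 with IL-4 at 4 ng/ml, with F(ab')2 anti-IgM at 5 µg/ml and with anti-CD40 at 1 µg/ml. ChIP-seq with an antibody to KDM2A or to H3K36me2 gave 3 lists per antibody and genotype, in which replicate 1 was labelled male and replicates 2 and 3 female. The study gives an age range for all its mice together. Nothing in the sources used here gives the age of the mice behind each library or says whether libraries with different antibodies shared mice, so a p-value measures the spread between these libraries only. Every cell of the KO mice lacks miR-155, and loss of the microRNA before the culture cannot be told apart from loss during it. The 12 lists hold no reads, and how deeply a library was sequenced is unknown.

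KDM2A is a lysine demethylase that removes methyl groups from dimethylated lysine 36 of histone H3. Its CXXC zinc finger binds DNA with unmethylated CpG, which brings the enzyme to CpG islands (CGIs), the CpG-rich stretches that cover many promoters. H3K36me2 is a broad mark of active gene bodies and of chromatin between genes, and CGIs are known to be poor in it. The microRNA miR-155 is induced when B cells are activated, and Kdm2a mRNA is among its targets, so the KO lists show KDM2A binding in cells without this repressor.

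The lists differed in length, which bears on any site called in only one genotype. For KDM2A there were from 23372 to 29105 peaks per WT list but from 15387 to 21705 per KO list. For H3K36me2 there were from 85387 to 94136 peaks per WT list, and 106720, 37447 and 45180 in KO replicates 1, 2 and 3. The H3K36me2 lists covered 113.7, 145.1 and 143.1 Mb in WT and 98.9, 43.3 and 39.4 Mb in KO replicates 1, 2 and 3. A KDM2A peak lay within 2 kb of a TSS of all 7 B cell markers in each WT list and of 6 in each KO list. For the 6 T cell markers it was 1 to 3 per WT list and 0 to 2 per KO list, for the 5 myeloid markers 0 to 1 and 0 to 2, and for the 4 erythroid markers 1 in every list. Peaks are not expression, and the part of other cells in the KO-only intervals was not tested. Chromosome X held 0.295% of the KDM2A peaks in WT replicate 1 and 0.249% in KO replicate 1, against 0.910% to 0.991% in the 4 lists labelled female, so the sexes separated in the same way in both genotypes.

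The central sequences of 6 members show the DNA under KO-only peaks of high fold. They belong to the members of highest mean fold among those called in all 3 KO lists, leaving out any with more than 30 bases of annotated UTR. They are given on the plus strand of GRCm38, 5′ to 3′, 200 bases each, with every CpG in capitals. The stretches were Atxn1 at chr13:45884639-45884838, Gm11708 at chr11:107012536-107012735, Zfyve28 at chr5:34259201-34259400, Tecpr1 at chr5:144223268-144223467, H2-Eb2 at chr17:34331822-34332021 and Cstb at chr10:78420951-78421150.
Atxn1: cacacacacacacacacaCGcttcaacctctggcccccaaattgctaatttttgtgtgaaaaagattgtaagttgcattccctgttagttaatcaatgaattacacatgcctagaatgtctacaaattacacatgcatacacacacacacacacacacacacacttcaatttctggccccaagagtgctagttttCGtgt
Gm11708: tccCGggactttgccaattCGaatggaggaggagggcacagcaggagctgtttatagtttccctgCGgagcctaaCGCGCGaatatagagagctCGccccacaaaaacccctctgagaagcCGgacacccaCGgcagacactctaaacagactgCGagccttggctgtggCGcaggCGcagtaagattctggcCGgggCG
Zfyve28: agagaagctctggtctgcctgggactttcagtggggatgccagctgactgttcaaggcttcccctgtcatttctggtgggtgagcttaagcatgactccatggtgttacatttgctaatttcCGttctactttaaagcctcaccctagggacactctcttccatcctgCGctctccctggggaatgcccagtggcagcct
Tecpr1: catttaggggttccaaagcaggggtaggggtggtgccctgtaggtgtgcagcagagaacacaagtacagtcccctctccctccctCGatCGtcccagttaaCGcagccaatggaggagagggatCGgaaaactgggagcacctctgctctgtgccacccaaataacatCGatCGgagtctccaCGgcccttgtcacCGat
H2-Eb2: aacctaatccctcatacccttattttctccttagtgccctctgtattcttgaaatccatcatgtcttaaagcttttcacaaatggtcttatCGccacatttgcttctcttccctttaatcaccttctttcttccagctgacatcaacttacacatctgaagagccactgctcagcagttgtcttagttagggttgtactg
Cstb: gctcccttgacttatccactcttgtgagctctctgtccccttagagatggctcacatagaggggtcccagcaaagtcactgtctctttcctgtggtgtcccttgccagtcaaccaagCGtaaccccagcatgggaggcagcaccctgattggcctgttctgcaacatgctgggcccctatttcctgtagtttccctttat
The Gm11708 and Tecpr1 stretches, both in intervals that overlapped a CGI, held 14 and 8 CpGs. The other stretches held 1 or 2, and the Atxn1 stretch carried runs of CA repeats, with 37.0% of its bases repeat-masked. The members of highest fold thus included both CpG-dense and CpG-poor DNA.

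In the KO lists the members had low fold, the ratio of ChIP over input signal at a peak as the authors' peak caller gave it. In KO replicate 1 the 348 members called there had a lowest, median and highest fold of 1.91, 2.66 and 3.69, in replicate 2 the 324 members had 1.79, 2.64 and 3.58, and in replicate 3 the 444 members had 1.84, 2.61 and 4.24. Intervals bound in both genotypes had medians of 2.95, 2.89 and 2.94, counted by their highest peak in each list. No member held more than 1 peak of a list. The median of all peaks in the same lists was 2.78, 2.73 and 2.69. The members' median therefore lay at the 31.9, 35.1 and 37.1 percentile of its list. Their median −log10 q was 1.46, 1.5 and 1.49, against 1.78, 1.78 and 1.72 over the lists, where the lowest values were 1.03, 1.01 and 1.01.

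**Figure D1:**
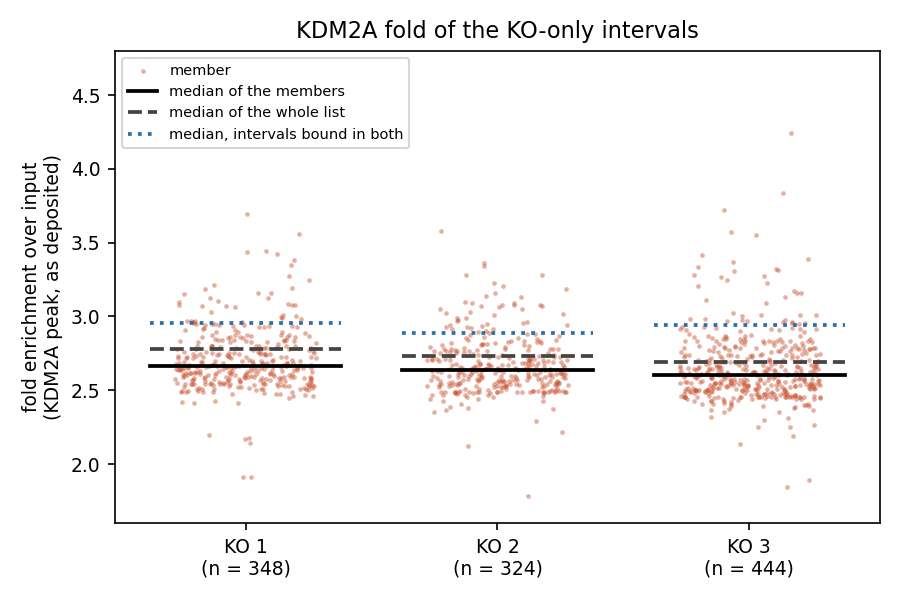
KDM2A fold enrichment over input (vertical axis, a ratio as deposited) of each KO-only interval in each KO list (points, with the number of members called below the axis). The black line is the median of the members (2.66, 2.64 and 2.61) and the dashed line the median of the whole list. The dotted line, which lies highest in every list, is the median of intervals bound in both genotypes, by the highest peak of each interval.

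Few members were called in every KO list. Of the 539, 38 (7.05%) had a peak in all 3 KO lists, whereas 65.0% of the 9129 intervals bound in both genotypes did, and 15.2% of the 3125 WT-only intervals (at least 2 WT lists, no KO list) had a peak in all 3 WT lists. The remaining 501 were called in exactly 2 lists, 95 in replicates 1 and 2, 215 in replicates 1 and 3, and 191 in replicates 2 and 3. Replicate 3, the longest KO list, took part most often. Just inside the rule, the 501 members in 2 lists had a median fold of 2.65 and a median width of 806 bp. Just outside it, the 15520 intervals with 1 KO list and no WT list had 2.60 and 375 bp, and the 940 intervals with at least 2 KO lists and 1 WT list had 2.72 and 1155 bp. The members graded into both neighbouring sets.

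The size of the set depended on single libraries and on the threshold for a peak. Without WT replicate 1, 2 or 3 the same rule gave 914, 797 or 881 intervals. Without KO replicate 1, 2 or 3, when both remaining KO lists had to hold a peak, it gave 230, 256 or 134. With only peaks of −log10 q of at least 2 it gave 162 intervals, of which 132 (81.5%) held a WT peak in the deposited lists that fell below this threshold. Only 30 of them had no deposited WT peak.

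Members lay close to WT peaks although they overlapped none. The gap from a member to the nearest WT KDM2A peak had a median of 2190 bp, with quartiles of 805 and 6312 bp, and ran from 4 bp, at Ubr4, to 276975 bp. A WT peak lay within 1 kb of 160 members (29.7%). The gene with the nearest TSS had a WT KDM2A peak within 2 kb of one of its TSSs for 389 members (72.2%), and in all 3 WT lists for 258 (47.9%). Over all bound intervals these shares were 94.6% and 71.9%, and over WT-only intervals, which hold a WT peak themselves, 89.4% and 60.4%. The members' shares were the lowest of these sets, whose definition fixes part of this order.

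By the centre of the interval, 214 members (39.7%, 95% Wilson interval 35.7 to 43.9) lay at a promoter, within 2 kb of a TSS, 216 (40.1%) were intragenic and 109 (20.2%) intergenic. Of the intervals bound in both genotypes, 82.1% lay at promoters, 10.6% were intragenic and 7.38% intergenic. The WT-only intervals divided as 38.8%, 40.4% and 20.8%, close to the KO-only ones. A CGI was overlapped by 98 members (18.2%, interval 15.2 to 21.7), by 13.6% of WT-only intervals and by 76.2% of intervals bound in both. These shares describe the called sets and were not tested, and the intervals cover counting error only.

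**Figure D2:**
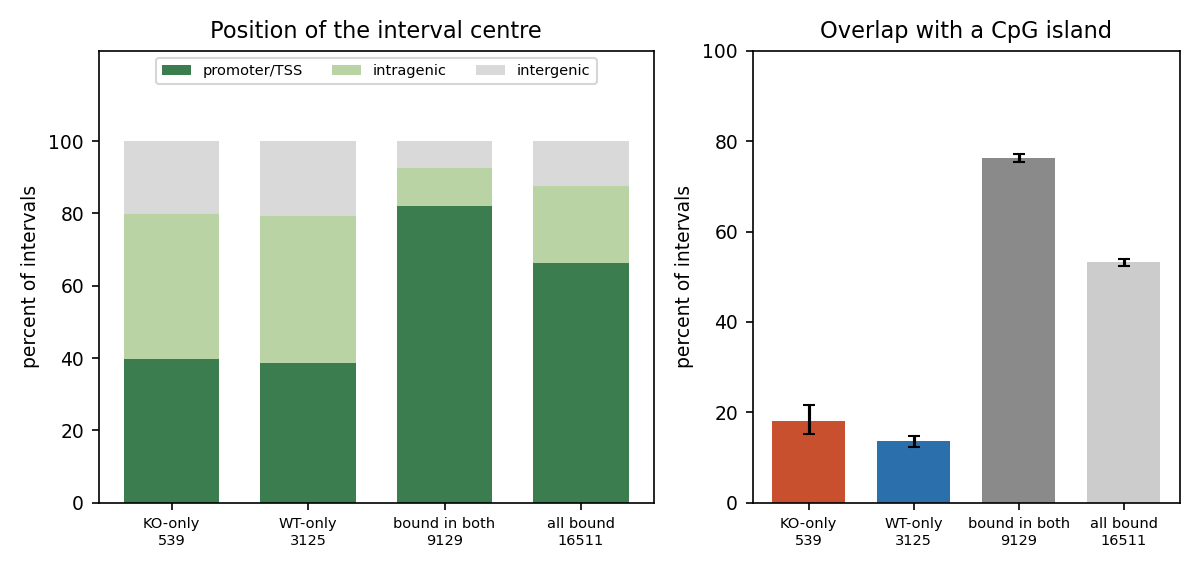
Left, percent of KDM2A intervals (vertical axis) whose centre lies at a promoter, in a gene or between genes, for the KO-only, WT-only, bound-in-both and all bound sets, with the number of intervals under each bar. Right, percent that overlap a CGI, with 95% Wilson intervals as error bars. The CGI bars of KO-only and WT-only intervals (18.2% and 13.6%) are far below that of intervals bound in both (76.2%). The error bars cover counting error only, and the shares were not tested.

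Both shares moved with the peaks that were counted. The promoter share was 67.3% and the CGI share 56.2% among the 162 intervals found with −log10 q of at least 2. With the same number of strongest peaks from each list, 764 intervals qualified, of which 50.8% were at promoters and 30.2% overlapped a CGI. Of these 764, 406 (53.1%) held a deposited WT peak. Leaving out WT replicate 2 gave a CGI share of 27.4%. When a promoter was taken as the 1 kb before a TSS and the 100 bp after it, the promoter share was 20.6%.

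Base composition followed the same division. The members had a median of 1.57 CpG per 100 bp and an observed to expected CpG ratio of 0.240, against 4.66 and 0.616 in intervals bound in both and 1.5 and 0.232 in WT-only intervals. Their median GC content was 52.5%, against 56.0% and 52.0%. They were narrower, with a median width of 818 bp (250 to 3308 bp) against 1945 and 1055 bp, and their median distance to a TSS was 3535 bp against 248 and 3377 bp. Introns held the centre of 272 members (50.5%), 124 (23%) lay more than 10 kb from any TSS, and 27 (5.01%) were more than 50% repeat-masked. Members that overlapped a CGI divided into 79 at promoters and 19 elsewhere, and those without into 135 and 306.

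Short motifs were counted on both strands of the central 300 bp. The GC box (GGGCGG), which Sp-family factors bind, stood in 17.1% of members and in 35.1% of all 16511 bound intervals. Within CGI intervals the shares were 59.2% and 56.2%, and without a CGI 7.71% and 11.1%, so the gap narrowed once islands were set apart. The CCAAT box (CCAAT) stood in 28.2% and 26.9%, the E-box CACGTG in 5.75% and 6.63%, and the hypoxia response core ACGTG, which the E-box contains, in 18.7% and 21%. TATAAA stood in 8.53% and 6.61%, GAGGAAGT, read by the B cell and myeloid factor encoded by Spi1, in 3.53% and 2.71%, and CCGGAAGT, read by ETS factors and sharing GGAAGT with it, in 0.742% and 2.66%. The CGI split changed the order for several of these. In CGI intervals the hypoxia response core stood in 32.7% of members and 24.4% of all bound intervals (without a CGI 15.6% and 17.2%), and the E-box in 9.18% and 7.30% (without, 4.99% and 5.86%). There CCAAT stood in 17.3% and 24.6% (without, 30.6% and 29.4%), TATAAA in 3.06% and 4.06% (without, 9.75% and 9.50%), and CCGGAAGT in 4.08% and 4.26% (without, 0% and 0.841%). The cAMP response element TGACGTCA stood in 0.557% and 1.10%, and GCATGCGC, part of the NRF1 site, in 1.3% and 1.91%, which rest on 3 and 7 members. In CGI intervals TGACGTCA stood in 0% and 1.67% (without, 0.680% and 0.453%), and GCATGCGC in 1.02% and 2.89% (without, 1.36% and 0.802%). Of WT-only intervals, 15.4% held the GC box, 30.2% CCAAT, 5.95% the E-box, 17.2% ACGTG and 9.54% TATAAA. GAGGAAGT stood in 2.75% of them, CCGGAAGT in 1.18%, TGACGTCA in 0.512% and GCATGCGC in 0.96%. Except for CCAAT, the members' shares lay nearer to these than to those of all bound intervals. A match describes the letters in this window and does not show that a factor was bound.

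The 38 members called in all 3 KO lists were the most repeatable. Among them 20 (52.6%) lay at promoters and 16 (42.1%) overlapped a CGI, against 194 (38.7%) and 82 (16.4%) of the 501 in exactly 2 lists. The member of highest mean fold spanned the TSS of 1810055G02Rik (chr19:3708108-3708551), a CGI promoter with fold 2.87, 2.97 and 3.20 in KO replicates 1 to 3. A TSS of this gene had a peak in 1 WT list, and the nearest WT peak lay 905 bp from the member. The next lay in an intron of Atxn1 (chr13:45884091-45885386), which encodes the nuclear RNA-binding protein ataxin, with fold 3.25, 2.83 and 2.97. The Atxn1 gene had WT peaks at a TSS in all 3 WT lists, 8222 bp or more away from the member.

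Other members of this group lay at genes of varied function. Tecpr1, a factor in fusion of autophagosomes with lysosomes, had a CGI promoter member (chr5:144222919-144223816) with fold 2.88, 3.03 and 2.84 and WT peaks at a TSS in 2 lists. Pomk, a kinase that modifies O-mannose on dystroglycan, had a promoter member (chr8:25993919-25994403) with fold 3.19, 2.67 and 2.84 and no WT peak at any TSS. Zfyve28, a FYVE-domain protein of endosomes, had an intronic member (chr5:34259035-34259566) with 2.94, 2.64 and 3.28 and also had WT peaks at a TSS in 2 lists. H2-Eb2, an MHC class II beta chain gene, had an intronic member (chr17:34331169-34332675) with 2.94, 3.16 and 2.57, but a WT peak lay only 17 bp from its edge. The H2-Eb2 member thus adjoined a site called in WT.

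The other members among the 10 of highest mean fold were nearest to small RNA genes, a pseudogene and a protease inhibitor gene, while 28 of the 38 were nearest to protein-coding genes. Gm22256, a small RNA gene within Zfp935, had fold 2.87, 2.55 and 3.55 (chr13:62466679-62467115), 185905 bp from the nearest WT peak. Gm11708, a pseudogene, had an intergenic CGI member (chr11:107012138-107013133) with 2.97, 3.28 and 2.77. Gm27316, within an intron of Adap1, had 3.10, 2.65 and 2.85 (chr5:139315243-139315997). Cstb, which encodes cystatin B, an inhibitor of cysteine proteases, had 2.77, 2.68 and 3.16 in a member at -4618 bp from its TSS, where negative values are upstream (chr10:78420656-78421445).

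Promoters of genes without a called WT peak formed a smaller group. Of the 214 promoter members, 85 were at genes with no WT KDM2A peak at any TSS, and 52 of these (61.2%) overlapped a CGI, against 27 (20.9%) of the 129 at genes with a WT peak. The gap to the nearest WT peak had a median of 15377 bp in the first group and 920 bp in the second. In 13 of the 85 the peak was called in all 3 KO lists. They included, chosen here after their values were seen, Ndufa12 (a subunit of respiratory complex I), Mtr (methionine synthase), Ehhadh (an enzyme of peroxisomal fatty acid oxidation), Eif4e3 (a cap-binding protein) and Tspan5 (a tetraspanin). Mtr had fold 2.84, 2.66 and 2.90, Ehhadh 2.94, 2.58 and 2.66, Eif4e3 2.56, 2.75 and 2.79, and Tspan5 3.11, 2.49 and 2.76.

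Among members in exactly 2 KO lists, the highest mean fold was at the CGI promoter of Smpd4, a neutral sphingomyelinase (chr16:17619292-17619769), with 2.81 and 4.24 in replicates 2 and 3. The intergenic member at -31764 bp from the TSS of Rny3, a Y RNA gene, followed with 3.08 and 3.72 in the same replicates (chr6:47749638-47750082). Ice2, a subunit of the little elongation complex, had 2.65 and 3.83 there at a CGI promoter (chr9:69397846-69398318). The forkhead gene Foxn3 had an intronic member (chr12:99401969-99403228) with 2.86 and 3.57 in replicates 1 and 3, and the winged-helix gene Stox1 a CGI promoter member (chr10:62725809-62726265) with 3.16 and 3.27. In all 5 the higher of the values was that of KO replicate 3.

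The widest members were intergenic or intronic. The member nearest to Runx3, a transcription factor of lymphocytes, was 3308 bp wide (chr4:135192062-135195369) and had fold 2.7 and 2.57 in KO replicates 2 and 3. Mtss1, a membrane-bending actin regulator, had an intronic member of 2971 bp (chr15:59046119-59049089) with 2.63 and 2.48, and Def8 one of 2645 bp (chr8:123427438-123430082) with 2.38 and 2.25. The mean fold of each was below the 2.65 that was the median over all members.

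The 539 members had 518 nearest genes, 4.57% of the 11333 genes nearest to any bound interval. Against that background, counts in lists of genes bear no test, since the rule used these calls. Among 70 bound nuclear genes of respiratory complexes, 2 were nearest to a member. At Ndufa12 the promoter member (chr10:94197906-94199418) overlapped a CGI and had fold 2.87, 2.71 and 2.83, with the nearest WT peak 49412 bp away. At Cox8a, a subunit of complex IV, the member lay at -4164 bp (chr19:7221576-7221983) with 2.47 and 2.52 in replicates 2 and 3, while the Cox8a TSS had WT peaks in all 3 lists. Of 68 bound genes of mitochondrial ribosomal proteins and import, 1 was nearest to a member, Mrpl36 (chr13:73330828-73331562), with 2.84 and 2.65 in replicates 1 and 3. These 2 lists thus held 3 members, and other nuclear genes for mitochondrial proteins were not counted.

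Of 33 bound genes of oxygen sensing and glycolysis, 3 were nearest to a member. Egln3, a prolyl hydroxylase that marks hypoxia-inducible factor for degradation, had an intronic member (chr12:54190616-54193077) with 2.77 and 2.50 in replicates 1 and 3. Gpi1, the isomerase of glucose 6-phosphate, had a pair of members (chr7:34204485-34205809 and chr7:34207139-34208467), 183 and 617 bp from WT peaks, with fold 2.47 and 2.96 and 2.65 and 2.86 in replicates 2 and 3. Pfkp, a phosphofructokinase, had 2.82 and 3.01 in the same replicates (chr13:6587898-6589109). Gpi1 and Pfkp had WT peaks at a TSS in all 3 lists and Egln3 in 2, so each was also bound in WT.

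Of 30 bound genes of B cell identity and activation, 3 were nearest to a member. Blnk, the adaptor downstream of the B cell receptor, had a member 38 bp from a WT peak (chr19:40965278-40965560) with 2.85 and 2.80 in replicates 2 and 3. Cd40, the receptor bound by the antibody in the culture, had one at -856 bp from a TSS (chr2:165060933-165062707) with 2.59 and 2.53 in replicates 1 and 3. Spi1, a transcription factor of B and myeloid cells that is also in the list of reported miR-155 targets, had 2.80 and 2.66 in the same replicates (chr2:91082460-91083433). All 3 genes had WT peaks at a TSS. Cd80, a costimulatory ligand of activated B cells outside these lists and named after its values were seen, had an intronic member in all 3 KO lists with 2.63, 2.67 and 2.55.

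Of 15 bound reported miR-155 targets, 3 were nearest to a member. Besides Spi1 they were Inpp5d, the inositol phosphatase SHIP (chr1:87699749-87700486), with 2.73 and 2.56 in replicates 1 and 2, and Sh3pxd2a, a scaffold of podosomes, with a pair of intronic members (chr19:47301527-47303065 and chr19:47439410-47441781) and fold from 2.51 to 2.77. Kdm4b, a histone demethylase, was the 1 of 11 bound genes of H3K36 methylation and the KDM2A complex (chr17:56330306-56332088), with 2.87 and 2.66 in replicates 1 and 3. Rps10 was the 1 of 64 bound cytosolic ribosomal protein genes (chr17:27640513-27641947), and none of 35 bound DNA replication genes was nearest to a member. No member overlapped Mir155, its host gene Mir155hg or Kdm2a.

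Members were spread over the genome. There were 21 genes with a pair of members, and 8 pairs of neighbouring members lay within 10 kb. Chromosome X had 5 members. Chromosome Y had 1, in an intron of the pseudogene Mid1-ps1 with its nearest TSS that of Gm21860 (chrY:90761034-90762389), with fold 2.15, 2.54 and 2.42 in the KO lists, replicates labelled female included. It lies in the pseudoautosomal end of Y, which shares its sequence with X.

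H3K36me2, the mark that KDM2A removes, was measured in separate libraries that the rule did not use. In WT replicates 1 to 3 an H3K36me2 peak overlapped 36.2%, 33.4% and 37.1% of the 539 members, and in KO replicates 1 to 3 it overlapped 34.3%, 11.5% and 13.5%. The WT libraries lay together at 35.6% ± 1.93 (SD, n = 3) and the KO libraries at 19.8% ± 12.6 (SD, n = 3), with KO replicate 1 inside the WT range and the other KO replicates far below it. The difference of -15.8 percentage points gave p = 0.2 when the libraries were exchanged between genotypes in a two-sided exact permutation test, in which 3 libraries against 3 cannot give a p below 0.1. The H3K36me2 lists of KO replicates 2 and 3 were also the shortest, with 37447 and 45180 peaks, and that of KO replicate 1 the longest, with 106720, although its share was below those of WT replicates 1 and 3. By bases covered, every KO list lay below every WT list, at 98.9, 43.3 and 39.4 Mb against at least 113.7 Mb. The part of list length in the difference was not tested beyond the settings given next. With the same number of strongest H3K36me2 peaks from each list the difference was -8.91 points (exact permutation test, p = 0.1), and with only peaks of −log10 q of at least 2 it was -5.63 points (exact permutation test, p = 0.3). Without KO replicate 1 it was -23 points.

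**Figure D3:**
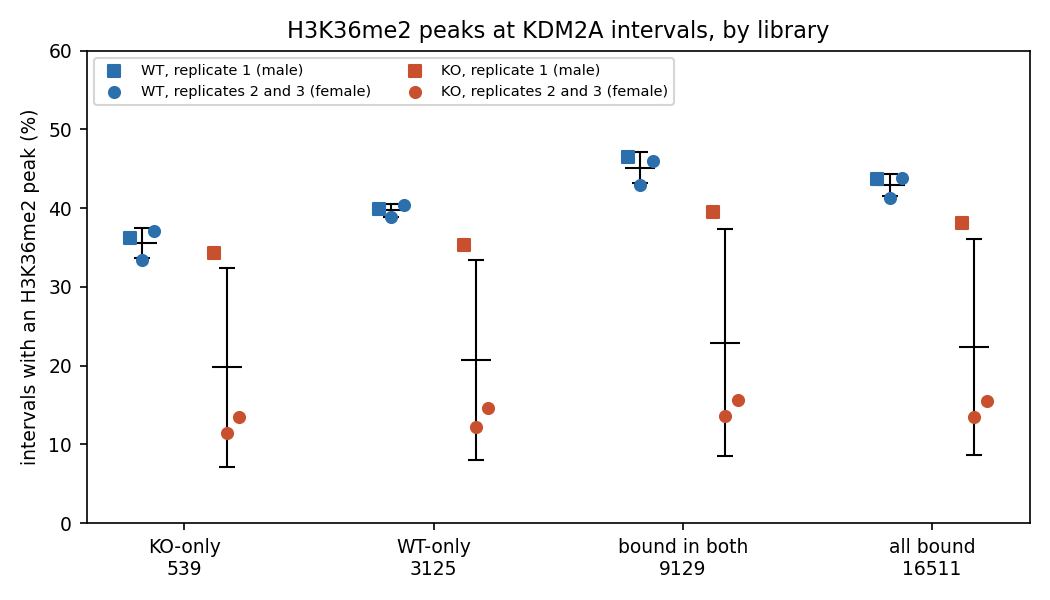
Percent of KDM2A intervals that overlap an H3K36me2 peak (vertical axis) in each WT and KO H3K36me2 library, for the KO-only, WT-only, bound-in-both and all bound sets. Squares are the male replicate 1, circles the female replicates 2 and 3, and black bars the mean and SD of 3 libraries. In every set KO replicates 2 and 3 lie below 16% and KO replicate 1 near the WT libraries.

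Because all KDM2A intervals showed the same split between KO libraries, the members were set against the other intervals in the same library. All bound intervals had an H3K36me2 peak in 43.7%, 41.3% and 43.8% of cases in WT and 38.1%, 13.5% and 15.6% in KO. Divided by these, the WT libraries had relative shares of 0.828, 0.808 and 0.847 for the members, and the KO libraries 0.90, 0.855 and 0.870. The groups did not overlap, and the mean difference was 0.0472, from 0.828 ± 0.0193 to 0.875 ± 0.0231 (SD, n = 3 each). The exact test, again two-sided, gave p = 0.1, its lower limit. In log2 of the share of KO-only over that of WT-only intervals, WT libraries averaged -0.16 ± 0.051 and KO libraries -0.082 ± 0.035 (SD), a difference of 0.079 (exact permutation test, p = 0.1). Adjusted over the 4 H3K36me2 tests by the Benjamini-Hochberg method, the p-values were 0.2, 0.133, 0.133 and 0.133, and none passed 0.05.

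The higher share in KO relative to all bound intervals did not hold once intervals were divided by CGI, whereas that relative to WT-only intervals was also seen among members without a CGI. Among members with a CGI the share relative to all bound CGI intervals was 0.394, 0.313 and 0.477 in WT against 0.344, 0.253 and 0.110 in KO, a difference of -0.159 (two-sided exact permutation test, p = 0.2, n = 3 each). Among members without a CGI it was 0.787, 0.753 and 0.793 in WT against 0.831, 0.695 and 0.718 in KO, a difference of -0.0298 (p = 0.6 in the same exact test). In log2 of the share over WT-only intervals, members without a CGI had -0.086, -0.15 and -0.083 in WT and 0.043, -0.030 and -0.0071 in KO. The groups did not overlap, and the difference was 0.11 (exact permutation test, p = 0.1). With a CGI that difference was -0.46 (exact permutation test, p = 0.6). By position it was -0.058 at promoters, 0.18 in genes and 0.088 between genes (exact permutation test, p = 0.7, 0.1 and 0.4), so its direction was not the same throughout. Both references also depended on how KDM2A peaks were joined and on how the mark was counted. With KDM2A peaks joined across gaps of up to 500 bp, the difference relative to all bound intervals was 0.0187 (exact permutation test, p = 0.6) and that over WT-only intervals 0.056 (exact permutation test, p = 0.4). With KDM2A peaks of −log10 q of at least 2 they were 0.0205 and -0.084 (exact permutation test, p = 0.8 and p = 1). When only H3K36me2 peaks with −log10 q of at least 2 were counted, the difference relative to all bound intervals turned to -0.0415. When at least 50% of an interval had to lie under the mark, it was 0.510 and the log2 difference over WT-only intervals to 0.30 (exact permutation test, p = 0.1 for both). Without WT KDM2A replicate 1 the difference relative to all bound intervals was 0.0980, and without WT H3K36me2 replicates or KO H3K36me2 replicates it stayed between 0.0347 and 0.0573.

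The chromatin around the members showed the same split. The mean share of the 10 kb centred on a member that lay under H3K36me2 peaks was 22.0%, 23.6% and 23.9% in WT against 17.9%, 6.16% and 6.83% in KO. The groups did not overlap, at 23.2% ± 1.02 and 10.3% ± 6.60 (SD, n = 3 each), and the difference of -12.9 points gave p = 0.1 in the two-sided exact permutation test. It was -8.57 points with the same number of strongest H3K36me2 peaks from each list and -5.29 points with −log10 q of at least 2. The coverage around all bound intervals was alike, at 21.7%, 23.3% and 23.7% in WT and 16.8%, 6.27% and 6.24% in KO. The lower coverage in KO was thus also found around the other KDM2A intervals.

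The profile of the mark depended on the CGI. Around the 441 members without a CGI, coverage of the central 2 kb was 28.4%, 29.5% and 29.6% in WT against 24.3%, 7.44% and 9.01% in KO, 1.08 to 1.33 times that of the outermost bins in every library. Around the 98 members with a CGI, coverage of the central 2 kb was 9.60%, 7.61% and 8.88% in WT against 4.72%, 1.63% and 0.459% in KO. This was 1.27, 0.939 and 1.05 times the outermost bins in WT and 0.625, 0.562 and 0.236 times in KO. The ratio was also lower in KO at the CGI intervals of the other sets, with 0.983, 0.723 and 0.820 in WT against 0.719, 0.459 and 0.450 in KO for those bound in both, and 1.01, 0.848 and 1.05 against 0.924, 0.623 and 0.609 for WT-only ones. The members' ratios in KO replicates 2 and 3 rested on coverage of under 3% on both sides, and the difference between genotypes in this ratio was not tested.

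**Figure D4:**
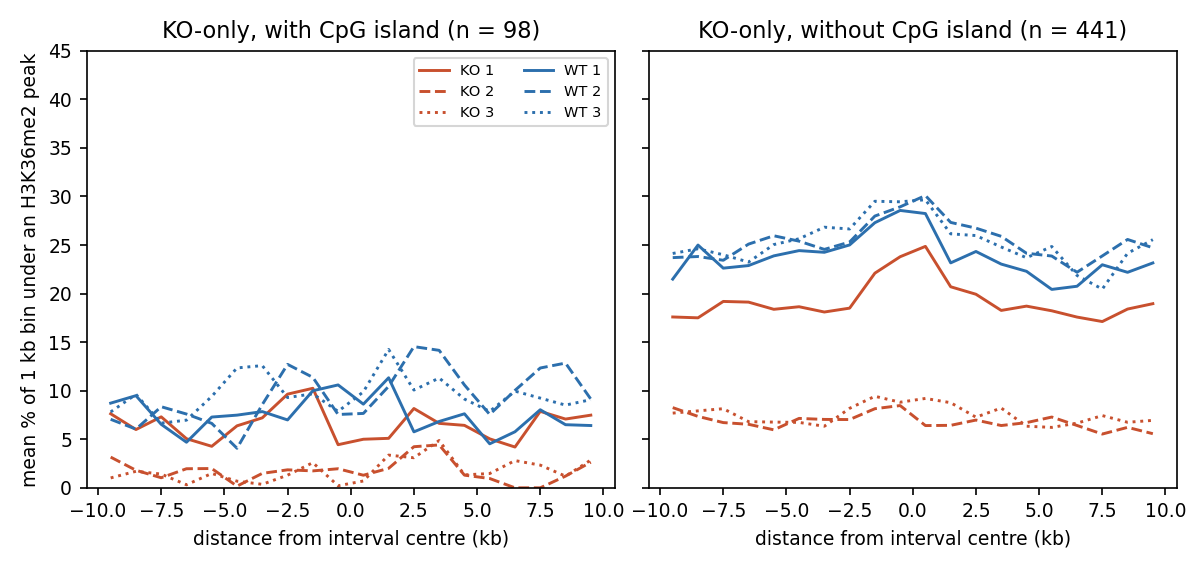
Mean percent of each 1 kb bin that lies under an H3K36me2 peak (vertical axis) by distance from the centre of a KO-only interval in kb (horizontal axis), for the 98 intervals with a CGI (left) and the 441 without (right). Blue lines are WT and red lines KO libraries, 1 line per replicate. Intervals without a CGI have a summit at the centre in WT and in KO replicate 1 (28.4% and 24.3% in the central 2 kb of WT 1 and KO 1), and intervals with a CGI lie lower throughout.

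Taken member by member, 244 (45.3%) had no H3K36me2 peak in any library, against 29.9% of intervals bound in both, 41.9% of WT-only intervals and 34.9% of all bound intervals. More WT than KO libraries had a peak at 198 members (36.7%, 45.9% of all bound intervals), and more KO than WT libraries at 27 (5.01%, 5.34% of all bound). The mark was called in all 6 libraries at 26 members (4.82%, 5.996% of all bound), among them the intergenic member nearest to Rny3. Where the mark was called, its fold was ordinary, with medians of 2.69, 2.59 and 2.62 in WT and 2.81, 2.60 and 2.72 in KO against list medians of 2.62, 2.48 and 2.50 and of 2.73, 2.57 and 2.68.

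**Figure D5:**
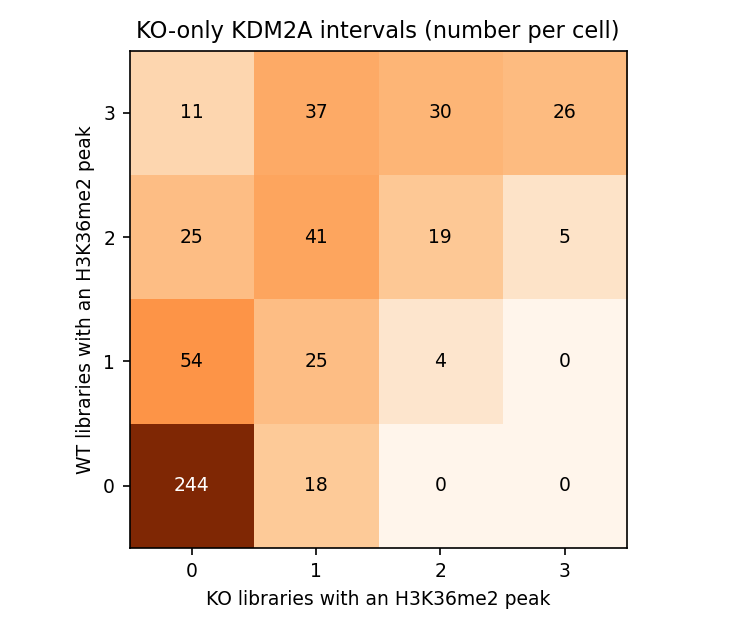
Number of KO-only KDM2A intervals (figures in the cells, shade by their square root) by how many of the 3 WT (vertical axis) and 3 KO (horizontal axis) libraries have an H3K36me2 peak there. The largest cell is the 244 intervals without a peak in any library, 11 have a peak in all WT and no KO libraries, and 0 the reverse.

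H3K36me2 was called in all 3 WT and no KO libraries at 11 members (2.04%, 95% Wilson interval 1.14 to 3.62), and the 3.07% of all bound intervals lay within this interval. The reverse, all 3 KO and no WT libraries, held for 0 members (upper Wilson limit 0.708%) and for 0.0182% of all bound intervals, 3 of 16511. Without KO H3K36me2 replicate 1 the count was 43 (7.98%, against 10.7% of all bound intervals). Without WT H3K36me2 replicate 1, 2 or 3 it was 19, 20 or 19 (3.53% to 3.71%, against 5.06% to 5.38% of all bound intervals). The widest of the 11 was in an intron of Ssh1, a phosphatase of cofilin (chr5:113973661-113974780), with 63.7%, 100% and 1.07% of its length under the mark in WT and KDM2A fold of 2.59 and 2.62 in KO replicates 1 and 3. Rapgef4, an exchange factor activated by cAMP (chr2:72170865-72171949), had 73%, 15.9% and 86.1% of its member under the mark in WT, and the hepcidin gene Hamp2 (chr7:30923995-30924899) had 71%, 73% and 26.4%. Cpne5, a calcium-dependent phospholipid-binding protein (chr17:29202154-29202725), had 100% in each WT library. A member within Gse1 (chr8:120374180-120374797), 69060 bp from its nearest TSS, that of Gm22715, had 100%, 100% and 57.1%. In all 5 the KO libraries had 0%.

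The named members of highest KDM2A fold differed in the pattern of the mark. At 1810055G02Rik, Gm22256, Pomk, H2-Eb2, Smpd4 and Stox1 no library had an H3K36me2 peak. The Zfyve28 member lay wholly under the mark in WT replicates 1 and 3 and not at all in WT replicate 2 or in KO. The Cstb member was covered to 23.4%, 0% and 3.42% in WT and to 96.2%, 0% and 69.2% in KO. At Gm27316 the mark covered 100% in all WT libraries and in KO replicate 1 and 0% in the other KO replicates. The Spi1 member, named through its gene lists, had 97.8%, 100% and 100% in WT and 100%, 0% and 12.4% in KO.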

How the data were processed

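ChIP-seq peaks of KDM2A and H3K36me2 were read from 12 deposited lists, without separate analysis of the 6 input libraries. The authors used the nf-core/chipseq pipeline, in which BWA mapped the reads (GRCm38) and MACS2 called broad peaks against input, separately for each library (per the labels and the study's methods). The version of MACS2 and any filters on reads are not given in the sources used here. The deposited columns used were the fold, a ratio over input that is not normalized between libraries, and −log10 of the q-value. The deposited −log10 of the p-value and the deposited score of a peak were not used. The lists give no read counts, the depth is therefore unknown, and a shorter list may come from a shallower library.

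All 590705 peaks lay within the chromosomes of GRCm38.p6. KDM2A peaks overlapping by at least 1 bp were joined. Starts are printed as 1-based positions. TSSs were from GENCODE (55450 genes, 132666 TSS positions), and 16100 CGIs were computed from the repeat-masked sequence by scoring a CpG 17 and any other base -1 along the chromosome and keeping stretches of at least 200 bp, 50% GC and an observed to expected CpG ratio of 0.6. A bound interval had a peak in at least 2 lists of a genotype. Overlap with H3K36me2 needed 1 bp. Shares per library were compared between genotypes by exact permutation of the 6 libraries (two-sided). Scripts used scipy 1.17.1, numpy 2.4.6 and pandas 2.3.3 under Python 3.11.15 and were tested on simulated intervals.

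The members, gene lists and tests were chosen with earlier results of these data known. Genes named are the 10 members of highest mean fold in all 3 KO lists, the 5 in exactly 2, members nearest to a gene of a list, up to 5 whose H3K36me2 calls do not overlap between genotypes and the 3 widest. Mtr, Ehhadh, Eif4e3, Tspan5, Cd80, Ubr4 and the member on chromosome Y were named after their values were seen. Alternatives covered the KDM2A and H3K36me2 thresholds, equal list lengths, joining across gaps, TSS windows, overlap, each library left out and pairing by replicate number.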

Additional observations from a re-analysis of the deposited data

Results flagged for a closer look

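In 3 of 20 H3K36me2 measures of the KO-only intervals the male libraries and all female libraries moved in opposite directions between genotypes, which was not tested, since each genotype had 1 male library. In 11 they moved in the same direction, among them the share of all members (-1.86 points in the male and -22.7 on average in the female libraries) and the 10 kb coverage (-4.10 and -17.3 points), and in 6 the female libraries were mixed. The share of intragenic KO-only intervals with an H3K36me2 peak was 2.78 percentage points higher in the male KO than in the male WT library, whereas every female KO library was 23.6 to 26.9 points below every female WT library. The share of intragenic KO-only relative to intragenic bound intervals was 0.123 higher in the male KO library. The share of KO-only relative to bound intervals without a CGI was 0.0445 higher in the male KO library. Both relative shares were lower in every female KO library than in every female WT library. The male KO H3K36me2 list also had the most peaks, 106720, but covered 98.9 Mb, less than any WT list. Sex cannot be told apart from the number of peaks or the bases covered here.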

How the results depend on the processing

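With KDM2A peaks of −log10 q of at least 2, the KO-only intervals numbered 162, with 67.3% at promoters, 56.2% on CGIs and a median fold of 3.05, and the log2 H3K36me2 share over WT-only intervals turned to a KO minus WT difference of -0.084. With equal numbers of strongest peaks these were 50.8%, 30.2% and 2.73. The promoter share was 35.3% with protein-coding TSSs and 20.6% with the narrower window. With H3K36me2 peaks of −log10 q of at least 2, the difference relative to all bound intervals turned to -0.0415, and the count with the mark in all WT and no KO libraries was 4. The causes were not tested. Leaving out 1 library at a time gave 134 to 914 intervals, promoter shares of 40.2% to 47.2%, CGI shares of 18.3% to 27.4%, a median fold of 2.64 to 2.7, H3K36me2 share differences of -23.0 to -11.6 points, differences relative to all bound intervals of 0.0308 to 0.0980, log2 differences over WT-only intervals of -0.0093 (without KO KDM2A replicate 3) to 0.15, 10 kb coverage differences of -16.7 to -10.7 points, and 13 to 43 intervals with the mark in all WT and no KO libraries. Leaving out H3K36me2 libraries for this count, and keeping only the 379 members without a WT peak within 1 kb, were chosen after seeing the data. Among those 379, 38.8% were at promoters, 21.6% on CGIs, and the H3K36me2 difference was -14.3 points.

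Paired by replicate number (replicate block), the 4 H3K36me2 differences are the same by construction, such as -15.8 points for the share, and each had p = 0.25 in the exact sign-flip test, the smallest that 3 pairs allow. Libraries with the same number share the labelled sex, but did not deviate together (correlations over members of 0.0034, 0.066 and -0.11). Joining peaks across gaps of up to 500 bp gave 584 intervals. The exact tests used cannot pass 0.05 with 3 libraries a genotype, so their p-values say nothing about stability, and with unknown depth a site without a WT peak may still be bound in WT.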
